A study of Arabidopsis thaliana with 12 samples.

Results

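The flavonoid and anthocyanin pathway is represented here by 7 probe sets of the Affymetrix ATH1 expression array, out of 22746 tested. They were taken by identifier, in a choice made with earlier results of these data known. The probe sets are 250207_at (CHS, AT5G13930), 252123_at (F3H, AT3G51240), 250558_at (F3'H, AT5G07990), 250533_at (FLS1, AT5G08640), 249215_at (DFR, AT5G42800), 254283_s_at (LDOX, AT4G22870 or AT4G22880) and 245628_at (PAP1, also called MYB75, AT1G56650). The platform annotation used here names DFR alone of the 7, and the other 6 names come from the list of probe sets itself. The probe set 254283_s_at matches both AT4G22870 and AT4G22880, and signal from these loci cannot be told apart.

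RNA from untreated Arabidopsis seedlings of 4 genotypes, SAB, SIZ1, AB and COL, was hybridised to 12 arrays, 3 per genotype. COL is the wild type, Columbia, and SAB, SIZ1 and AB are T-DNA knock-outs under the labels' own names. SIZ1 is also a gene, which encodes a ligase for the protein modifier SUMO. What SAB and AB stand for, and how many insertion lines or plants each rests on, is not in the labels. The medium was Murashige and Skoog with Gamborg B5, at 23 °C and 100 µE of light, and the study asked how ubiquitin-like proteases influence transcription. An age, 10 days, is given for AB 1 and AB 2 only. Whether the 3 samples of a genotype were grown separately is not stated, and the p-values then cover only the spread between these samples, part of which may be technical.

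Flavonoids are made from an activated phenylpropanoid and malonyl-CoA. Chalcone synthase (CHS) makes the first flavonoid skeleton, flavanone 3-hydroxylase (F3H) turns flavanones into dihydroflavonols, and flavonoid 3'-hydroxylase (F3'H) adds a hydroxyl group to the B ring. At the dihydroflavonol the route forks: flavonol synthase (FLS1) makes flavonols such as quercetin and kaempferol, while dihydroflavonol reductase (DFR) and leucoanthocyanidin dioxygenase (LDOX) lead to anthocyanins and, in the seed coat, to proanthocyanidins. In Arabidopsis seedlings flavonols act as ultraviolet screens and modulate auxin transport, and PAP1 is a MYB transcription factor that activates the anthocyanin branch.

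Values are GCRMA expression on the log2 scale, running from 2.02 to 13.21 over all arrays, with a median of 3.51 and a first quartile of 2.51 over the means of all probe sets. The precision is limited by the number of arrays. As a check of the labels, the SIZ1 probe set 247630_at read 2.51, 2.49 and 2.55 in SAB and 2.50, 2.51 and 2.19 in SIZ1 seedlings, against 5.16 to 5.45 in AB and 5.36 to 5.60 in COL. A second SIZ1 probe set, 247629_at, went the other way, at 3.84 to 3.94 in SAB and 4.12 to 4.63 in SIZ1 seedlings, against 3.07 to 3.27 in AB and 2.91 to 3.07 in COL. The probe set of the SUMO protease gene SPF1 (AT1G09730, 264707_at) lay at 3.13 to 3.29 in SAB, 4.22 to 4.35 in SIZ1 seedlings and 2.80 to 3.42 in AB, against 4.74 to 4.80 in COL. The array SAB 3 stood apart at the dim end: its first quartile was 2.55, against 2.48 to 2.52 on the other 11 arrays. Input RNA averaged 871 ng in SAB, 727 ng in SIZ1 seedlings, 739 ng in AB and 751 ng in COL.

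Of the 7 probe sets, CHS, F3H and FLS1 were read above the median probe set, and these 3 were higher in SAB and in SIZ1 seedlings than in AB and COL. Set as 6 arrays of SIZ1 and SAB against 6 of AB and COL, the rise was 1.76-fold for CHS, 2.22-fold for F3H and 2.03-fold for FLS1. F3'H and LDOX, below the median probe set, were not called in any comparison with or without the block, and DFR and PAP1 lay below the first quartile on every array. All RNA came from whole seedlings, so fewer cells of a type and less RNA per cell cannot be told apart.

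CHS, the entry enzyme of the pathway, read 6.82, 6.28 and 7.05 in SAB, 6.85, 6.54 and 7.22 in SIZ1 seedlings, 5.98, 5.56 and 6.11 in AB, and 6.12, 5.72 and 6.38 in COL, each in the order of replicate numbers 1, 2 and 3. SAB and SIZ1 seedlings were high and AB and COL low, but SAB 2, the lowest of its genotype, lay under COL 3, so the 6 arrays of SAB and SIZ1 and the 6 of AB and COL overlapped. The genotype means were 6.72 ± 0.40 in SAB, 6.87 ± 0.34 in SIZ1 seedlings, 5.89 ± 0.29 in AB and 6.07 ± 0.33 in COL (SD, n = 3 each). The order from high to low was SIZ1, SAB, COL and AB, in which the first pair and the last pair lay closer than the SD within a genotype.

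F3H, the next of the measured enzymes along the route, read 5.90, 5.58 and 5.94 in SAB, 6.05, 5.60 and 5.66 in SIZ1 seedlings, 5.23, 4.13 and 4.34 in AB, and 4.96, 4.22 and 4.94 in COL. Every array of SAB and SIZ1 lay above every array of AB and COL. The means were 5.81 ± 0.20 in SAB, 5.77 ± 0.25 in SIZ1 seedlings, 4.57 ± 0.59 in AB and 4.71 ± 0.42 in COL (SD, n = 3 each). AB had the widest spread, with AB 1 well above AB 2 and AB 3.

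FLS1, the main flavonol synthase of Arabidopsis, read 5.35, 4.68 and 5.43 in SAB, 5.30, 4.87 and 4.99 in SIZ1 seedlings, 4.35, 3.53 and 4.10 in AB, and 4.22, 3.79 and 4.52 in COL. The groups again did not overlap, though the lowest SAB array, 4.68, was close to the highest COL array, 4.52. The means were 5.15 ± 0.41 in SAB, 5.05 ± 0.22 in SIZ1 seedlings, 3.99 ± 0.42 in AB and 4.18 ± 0.37 in COL (SD, n = 3 each). For F3H and FLS1 the order was SAB, SIZ1, COL and AB, and the neighbours SAB and SIZ1, like the neighbours COL and AB, overlapped.

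**Figure D1:**
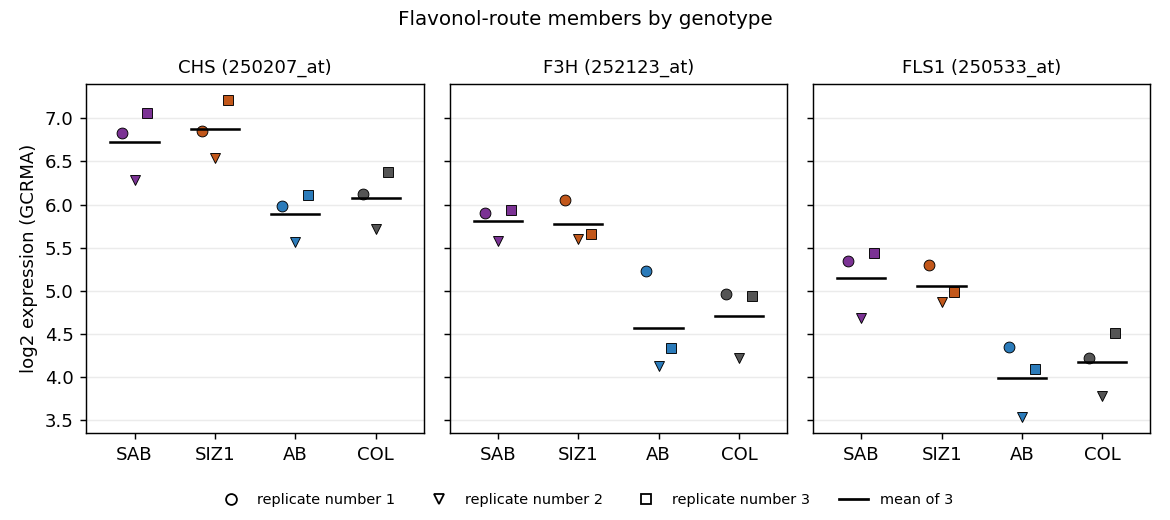
Log2 GCRMA expression (vertical axis) of CHS, F3H and FLS1 in SAB, SIZ1, AB and COL, 1 symbol per array with the shape giving the replicate number and a bar for the mean of 3. SAB and SIZ1 lie above AB and COL, without overlap for F3H and FLS1, and the triangles of replicate number 2 are the lowest symbols of every genotype.

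F3'H, the B-ring hydroxylase, read 3.12, 2.92 and 3.19 in SAB, 3.26, 2.82 and 2.91 in SIZ1 seedlings, 3.14, 2.84 and 2.60 in AB, and 2.83, 2.92 and 2.99 in COL. All 4 genotypes overlapped, and SIZ1 1 was the highest array. Set as SIZ1 and SAB against AB and COL, the difference was 0.15 on the log2 scale (SE 0.11, limma adjusted p = 0.507), with a 95% interval from -0.09 to 0.39.

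LDOX, a late enzyme of the anthocyanin and proanthocyanidin branches, read 2.64, 2.77 and 2.97 in SAB, 2.65, 2.65 and 2.61 in SIZ1 seedlings, 2.86, 2.95 and 2.77 in AB, and 2.70, 2.76 and 2.69 in COL. The AB arrays were among the highest and the SIZ1 arrays among the lowest, with SAB spanning the range. Its difference between SIZ1 and SAB against AB and COL was -0.07 (SE 0.05, limma adjusted p = 0.564), with a 95% interval from -0.19 to 0.05.

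DFR, which commits dihydroflavonols to the anthocyanin side, lay at 2.24 to 2.29 in SAB, 2.23 to 2.24 in SIZ1 seedlings, 2.24 to 2.26 in AB and 2.24 to 2.25 in COL. The activator PAP1 lay at 2.37 to 2.44 in SAB, 2.37 to 2.38 in SIZ1 seedlings, 2.38 to 2.40 in AB and 2.38 to 2.40 in COL. At these levels, close to the floor that GCRMA sets for dim probe sets, no difference between genotypes was measurable. For DFR, LDOX and PAP1 the highest of the 12 arrays was SAB 3, the array whose dim end stood apart, and the part of that shift in their values was not tested.

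**Figure D2:**
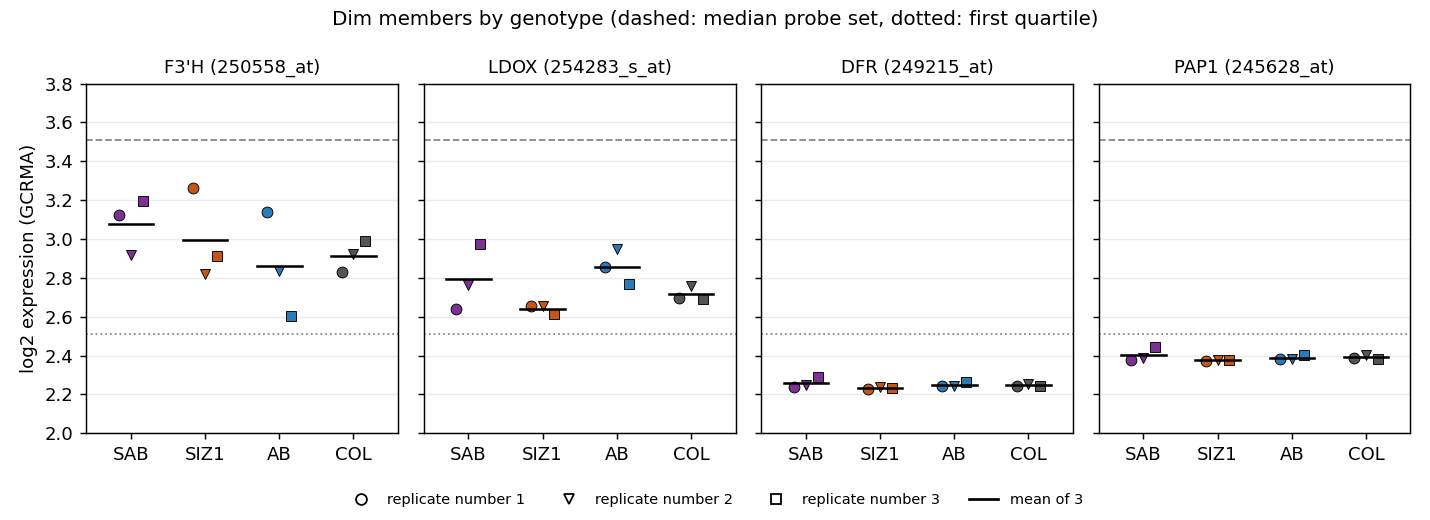
Log2 GCRMA expression (vertical axis) of F3'H, LDOX, DFR and PAP1 in SAB, SIZ1, AB and COL, 1 symbol per array with the shape giving the replicate number and a bar for the mean of 3. The dashed line is the median of all probe sets, 3.51, and the dotted line their first quartile, 2.51: all 4 lie under the first line, and DFR and PAP1 lie under both.

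All 12 arrays entered 1 contrast, the mean of SIZ1 and SAB, the genotypes low on the SIZ1 probe set 247630_at and high on 247629_at, against the mean of AB and COL. CHS rose by 0.82 on the log2 scale (SE 0.18, 95% interval 0.41 to 1.23, limma adjusted p = 0.0212). F3H rose by 1.15 (SE 0.21, 0.68 to 1.63, limma adjusted p = 0.00915). FLS1 rose by 1.02 (SE 0.19, 0.58 to 1.46, limma adjusted p = 0.0106). These were 3 of the 7 members, called upward with none called downward, where 10.7% of all probe sets were called in either direction, and the median difference was 0.15 over the 7 members and -0.0056 over all probe sets.

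The 6 arrays of SIZ1 and SAB lay wholly above the 6 of AB and COL for 2 of the 7, F3H and FLS1, where 5.98% of all probe sets had groups that did not overlap. Blocked by replicate number, the fit called the same 3, with limma adjusted p-values of 9.51e-05 for CHS, 0.00205 for F3H and 0.000982 for FLS1, where 13.5% of all probe sets were called. The CHS call was the least firm without the block: its adjusted p became 0.0501 without AB 2, 0.0504 without SAB 1 and 0.0503 without SAB 3. Without AB 1 and AB 2, the arrays with an age in their labels, AB is 1 array, assumed to vary like the other genotypes. Then 1 of the 7 was called: F3H held, and the adjusted p was 0.151 for CHS and 0.0602 for FLS1.

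Each line was then set against the 3 COL arrays, which these comparisons share. In SAB the differences were 0.65 for CHS (SE 0.26), 1.10 for F3H (SE 0.30) and 0.98 for FLS1 (SE 0.28). None of the 7 was called with limma on genotype alone, with adjusted p-values of 0.240, 0.0895 and 0.0985 for these 3, where 3.21% of all probe sets were called. At an unadjusted p under 0.05 there were 3 of the 7, and 16.4% of all probe sets. Blocked by replicate number, the same 3 probe sets were called, and 5.16% of all, with adjusted p-values of 0.00247 for CHS, 0.0196 for F3H and 0.0109 for FLS1. These calls held only with the arrays of every number: with the block and any single number left out, no member was called. Such fits have fewer arrays and residual degrees of freedom, so a call can end there without a change in the difference.

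In SIZ1 seedlings against COL, CHS differed by 0.80 (SE 0.26), F3H by 1.07 (SE 0.30) and FLS1 by 0.88 (SE 0.28). Again none of the 7 was called on genotype alone, with limma adjusted p-values of 0.149, 0.0996 and 0.139, where 3.22% of all probe sets were called. At an unadjusted p under 0.05 there were 3 of the 7, and 16.0% of all. With the block, CHS (adjusted p = 0.000919), F3H (0.0224) and FLS1 (0.0149) were called, and 5.13% of all probe sets. When all arrays of a single number were left out of the block fit, only CHS was called, and only without number 3 (limma adjusted p = 0.0391). Leaving out AB 1 brought a call for F3H in SIZ1 (adjusted p = 0.042) and in SAB (0.0401) without the block.

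AB against COL gave small differences, -0.18 for CHS, -0.14 for F3H and -0.18 for FLS1. None of the 7 was called by limma, 0 had an unadjusted p under 0.05 on genotype alone (7.75% of all probe sets), and 0.0615% of all probe sets were called. The 95% intervals ran from -0.77 to 0.40 for CHS, from -0.81 to 0.53 for F3H and from -0.80 to 0.44 for FLS1, and so still held differences of more than 0.5 downward. With the block the CHS interval narrowed to between -0.31 and -0.06, with an unadjusted p of 0.00891 but no call (limma adjusted p = 0.247). No member was called in that fit, where 0.325% of all probe sets were.

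SAB was also compared with the lines SIZ1 and AB. Against SIZ1 the differences were -0.15 for CHS (95% interval -0.73 to 0.43), 0.04 for F3H (-0.64 to 0.71) and 0.10 for FLS1 (-0.52 to 0.72). On genotype alone no member was called by limma, 0 had an unadjusted p under 0.05 (4.31% of all probe sets), and 0% of all probe sets were called. With the block, too, no member and 0% of all probe sets were called. CHS had an unadjusted p of 0.0226 there (limma adjusted p = 0.834), with an interval from -0.27 to -0.03. For CHS, SAB minus SIZ1 was -0.03, -0.26 and -0.16 within numbers 1, 2 and 3. Against AB the differences of SAB were 0.83 for CHS (limma adjusted p = 0.115), 1.24 for F3H (0.0513) and 1.16 for FLS1 (SE 0.28, 0.0482).

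In SAB against AB, FLS1 was therefore the 1 member called on genotype alone, where 4.43% of all probe sets were called. At an unadjusted p under 0.05 there were 3 of the 7, and 17.5% of all. That call was fragile: it ended without any single array other than SAB 2 and COL 2, with adjusted p up to 0.147. F3H gained a call without AB 1 (adjusted p = 0.0176) or without COL 2 (0.0433). With the block, CHS (0.000608), F3H (0.0114) and FLS1 (0.00551) were all called, and 6.82% of all probe sets. The block fit called CHS alone without number 1 (limma adjusted p = 0.0367) or without number 3 (0.0371), and no member without number 2.

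The SAB change less the SIZ1 and AB changes added together was 0.03 for CHS (95% interval -0.79 to 0.85), 0.18 for F3H (-0.78 to 1.13) and 0.28 for FLS1 (-0.59 to 1.16). No member and 0% of all probe sets were called by limma, and 0 members had an unadjusted p under 0.05 (5.35% of all probe sets). With the block the intervals were -0.14 to 0.21 for CHS, -0.44 to 0.79 for F3H and -0.17 to 0.73 for FLS1. No member was called by limma there, where 0.0528% of all probe sets were. In each fit all 3 intervals span both signs. A moderated F-test for any difference among the 4 genotypes called 0 of the 7, where 5.22% of all probe sets were called. Its adjusted p-values were 0.103 for CHS, 0.0533 for F3H and 0.0600 for FLS1, and 3 of the 7 had an unadjusted p under 0.05, as did 18.7% of all probe sets. With the block it called these 3, with adjusted p-values of 0.000579, 0.0119 and 0.00604, where 7.81% of all probe sets were called. When all arrays of a single number were left out, it called only CHS, and only without number 3 (adjusted p = 0.0465).

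**Figure D3:**
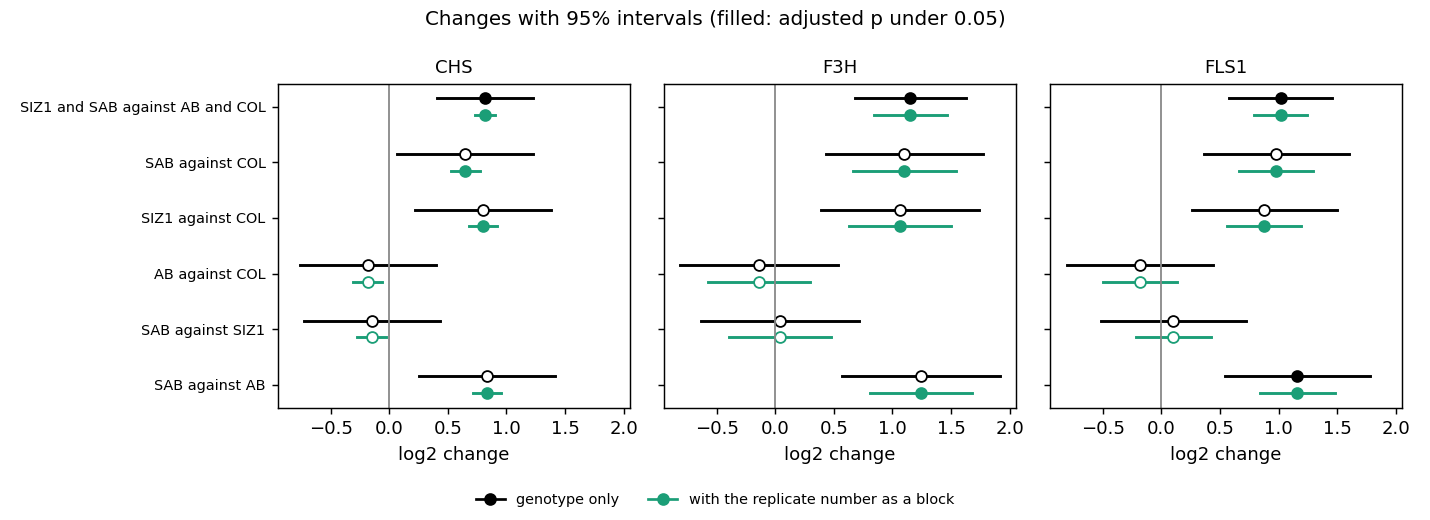
Log2 changes (horizontal axis) of CHS, F3H and FLS1 with 95% intervals in 6 comparisons, black for the fit on genotype alone and green for the fit with the replicate number as a block, filled where the adjusted p was under 0.05. Changes lie between 0.65 and 1.24 wherever SAB or SIZ1 is set against AB or COL, with CHS the lowest of the genes each time. They lie near 0 for AB against COL and SAB against SIZ1, and the green intervals are the narrower ones.

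Arrays with the same replicate number deviated together from their genotype means. In CHS, F3H and FLS1 the array numbered 2 was the lowest of the 3 in all 4 genotypes, which held for 3 of the 7 members and for 1.07% of all probe sets. The array numbered 1 was the lowest in all 4 genotypes for 7.21% of all probe sets, and the array numbered 3 for 3.11%. The choice of number 2 for this count followed the values of the members. Over the 4 genotypes CHS averaged 6.44 on the arrays numbered 1, 6.03 on those numbered 2 and 6.69 on those numbered 3. F3H averaged 5.54, 4.88 and 5.22, and FLS1 4.80, 4.22 and 4.76, in the same order of numbers.

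With genotype in the model, the number made a difference that was called by limma for CHS (moderated F, adjusted p = 0.00397), 1 of the 7 members, where 1.61% of all probe sets were called. FLS1 (adjusted p = 0.0822) and F3H (0.199) were not called. The labels do not say what the number stands for, whether a culture, a day or an order of handling.

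Taken within a number, the CHS difference was even: SAB minus COL was 0.70, 0.57 and 0.68 for numbers 1, 2 and 3, SIZ1 minus COL was 0.73, 0.83 and 0.84, and AB minus COL was -0.14, -0.15 and -0.26. Each number thus gave the same direction with a small spread. F3H was less even, with SAB minus COL at 0.94, 1.36 and 1.002, SIZ1 minus COL at 1.09, 1.38 and 0.73, and AB minus COL at 0.27, -0.09 and -0.60. FLS1 gave 1.12, 0.90 and 0.92 for SAB minus COL, 1.07, 1.08 and 0.47 for SIZ1 minus COL, and 0.12, -0.25 and -0.42 for AB minus COL. SAB and SIZ1 lay above COL within every number for all 3 genes, while AB lay on both sides of COL for F3H and FLS1.

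**Figure D4:**
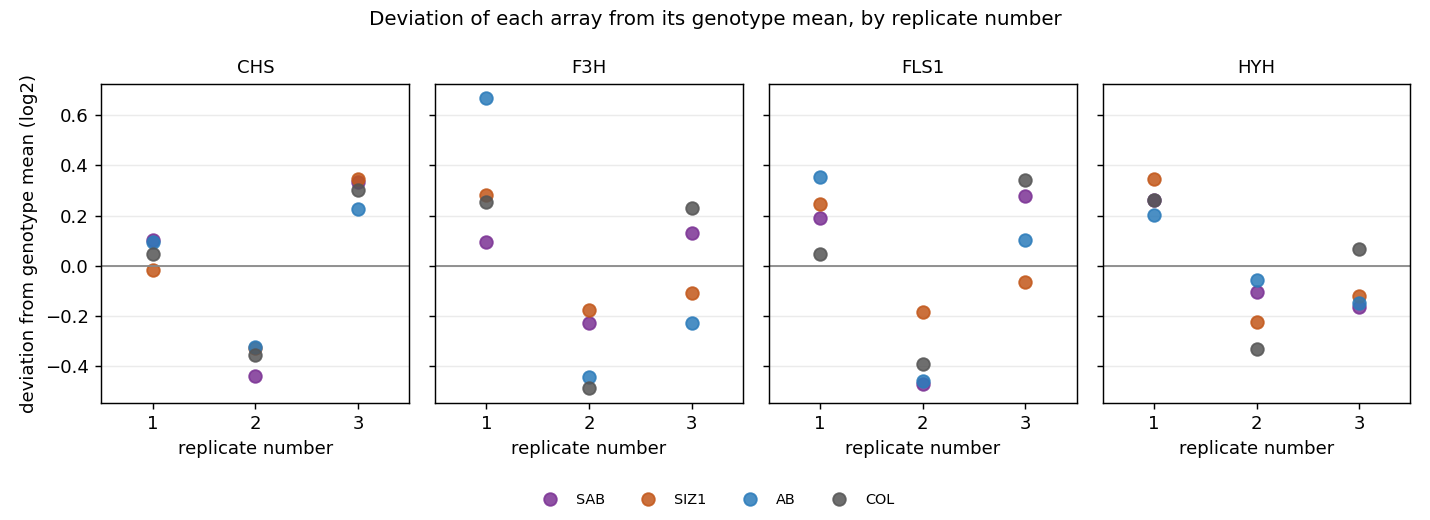
Deviation of each array from its genotype mean (vertical axis, log2) by replicate number for CHS, F3H, FLS1 and HYH, coloured by genotype. The 4 arrays numbered 2 lie below 0 in all 4 panels, and for CHS the 4 genotypes fall almost together at each number.

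The rest of the pathway was read from 7 lists of flavonoid genes with 61 loci, of which 11 beyond the members are named by 1 probe set each here. Measured below means a member or a locus so named. Other listed loci may have signal on probe sets that are unnamed here or name several genes. In SIZ1 and SAB against AB and COL, 3 of the 11 rose and none fell, against the 10.7% of all probe sets called in either direction, and the median over the 11 was 0.0050. The early-step list, CHS, F3H, F3'H and CHIL of 5 loci, held 3 rises among 4 measured, of which CHIL alone is no member. The flavonol list held 2 rises among 5 measured of 9 loci, the member FLS1 and UGT78D2. The anthocyanin list held 0 limma calls among 5 measured of 10 loci, all dim. At an unadjusted p under 0.05 it held 0, where 23.1% of all probe sets had one.

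CHIL (250794_at), a chalcone isomerase-like protein that assists the early enzymes, read 4.55, 4.04 and 3.99 in SAB, 4.24, 4.05 and 4.06 in SIZ1 seedlings, 3.32, 3.37 and 3.47 in AB, and 3.64, 3.66 and 3.85 in COL. All 6 arrays of SAB and SIZ1 lay above the 6 of AB and COL, with AB the lowest genotype. CHIL rose by 0.60 in SIZ1 and SAB against AB and COL (SE 0.10, limma adjusted p = 0.00481) and by 0.81 in SAB against AB (SE 0.14, adjusted p = 0.0126). Without AB 1 and AB 2 these adjusted p-values were 0.0625 and 0.219. With the block they were 0.112 and 0.185 without number 2, and the second was 0.0558 without number 1 and 0.0868 without number 3. A fit of SAB and AB alone gave 0.0676 for the second.

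The glycosyltransferases that decorate flavonols had positive differences too, and 1 of the measured 3 above the dim range was called. UGT78D2 (246468_at), which adds glucose to flavonols and anthocyanidins, read 4.63, 4.33 and 4.75 in SAB, 4.55, 4.24 and 4.13 in SIZ1 seedlings, 4.18, 4.26 and 4.17 in AB, and 4.04, 3.89 and 3.87 in COL. It was high in SAB and low in COL, with SIZ1 and AB overlapping between them. It rose by 0.64 in SAB against COL (SE 0.12, limma adjusted p = 0.0268) and by 0.37 in SIZ1 and SAB against AB and COL (SE 0.09, adjusted p = 0.0259). Leaving out any of 5 single arrays, SAB 1, SAB 3 or a COL array, ended the call against COL, with adjusted p up to 0.0855. The second call ended without any of SAB 1, SAB 3, AB 1, AB 3, COL 2 or COL 3, with adjusted p up to 0.0604, and was 0.135 without AB 1 and AB 2. With the block and without the arrays of 1 number, both calls ended whichever number was left out, with adjusted p up to 0.159 against COL and up to 0.202 in the second comparison.

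UGT89C1 (260955_at), a flavonol rhamnosyltransferase, read 5.23, 4.71 and 4.55 in SAB, 5.28, 5.05 and 4.57 in SIZ1 seedlings, 4.34, 3.74 and 4.45 in AB, and 4.49, 4.28 and 4.44 in COL. UGT78D1 (261804_at), also a flavonol rhamnosyltransferase, read 5.72, 5.01 and 4.88 in SAB, 5.84, 5.33 and 5.002 in SIZ1 seedlings, 4.69, 4.29 and 5.003 in AB, and 4.67, 4.65 and 4.83 in COL. Arrays SAB 1 and SIZ1 1 were the highest for both, and UGT78D1 overlapped between the groups. The difference of SIZ1 and SAB against AB and COL was 0.61 for UGT89C1 (SE 0.17, limma adjusted p = 0.0546) and 0.61 for UGT78D1 (SE 0.19, 0.0816). With the block UGT89C1 was called (adjusted p = 0.0344) and UGT78D1 was not (0.0633).

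Among regulators, HYH (258349_at), a bZIP factor related to the light-signalling factor HY5, read 4.78, 4.41 and 4.35 in SAB, 5.10, 4.53 and 4.63 in SIZ1 seedlings, 3.93, 3.67 and 3.58 in AB, and 3.90, 3.31 and 3.70 in COL. Its groups did not overlap, and SIZ1 seedlings were the highest genotype. HYH rose by 0.95 in SIZ1 and SAB against AB and COL (SE 0.14, limma adjusted p = 0.00316), by 0.88 in SAB against COL (SE 0.20, adjusted p = 0.0477) and by 1.12 in SIZ1 against COL (SE 0.20, adjusted p = 0.0176). In SAB against AB it differed by 0.78, with an adjusted p of 0.0584, and of 0.00552 with the block. The SAB call ended without any single array other than SIZ1 1, with adjusted p up to 0.130, and the SIZ1 call without SIZ1 1 (0.0526). The SIZ1 call also ended in a fit of SIZ1 and COL alone (0.138), and with the block without number 1 (0.0779) or number 2 (0.0691). Of 16 listed activator loci, HYH was the 1 named by a probe set of its own beside the member PAP1, and PAP1 lay close to the floor.

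The other 6 of the 11 were dim and not called in any comparison. UGT78D3, another flavonol glycosyltransferase, the anthocyanin-decorating UGT75C1, UGT79B1 and A5G6MAT, and BAN, the reductase of the seed-coat branch, lay between 2.16 and 2.66 on every array. TRY, a small MYB listed among the repressors, lay at 2.92 to 2.99. Against COL, 2 of the 11 rose in SAB (3.21% of all probe sets called), 1 in SIZ1 seedlings (3.22%) and 0 in AB (0.0615%). In SAB against AB 1 rose (4.43%), and none fell in these 4 comparisons.

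Of the listed tissue markers 1 gene only was named by a probe set of its own. It was dim, around the first quartile of all probe sets (2.51), where a change may be understated. EXPA7, an expansin of root hair cells and the 1 measured of 6 listed root markers, lay at 2.46 to 2.72 in SAB, 2.52 to 2.74 in SIZ1 seedlings, 2.52 to 2.57 in AB and 2.47 to 2.55 in COL. None of 5 green tissue markers, 9 seed reserve loci or 8 loci of the phenylpropanoid entry is named by a probe set of its own here. The part of tissue make-up in the rises was not tested.

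**Figure D5:**
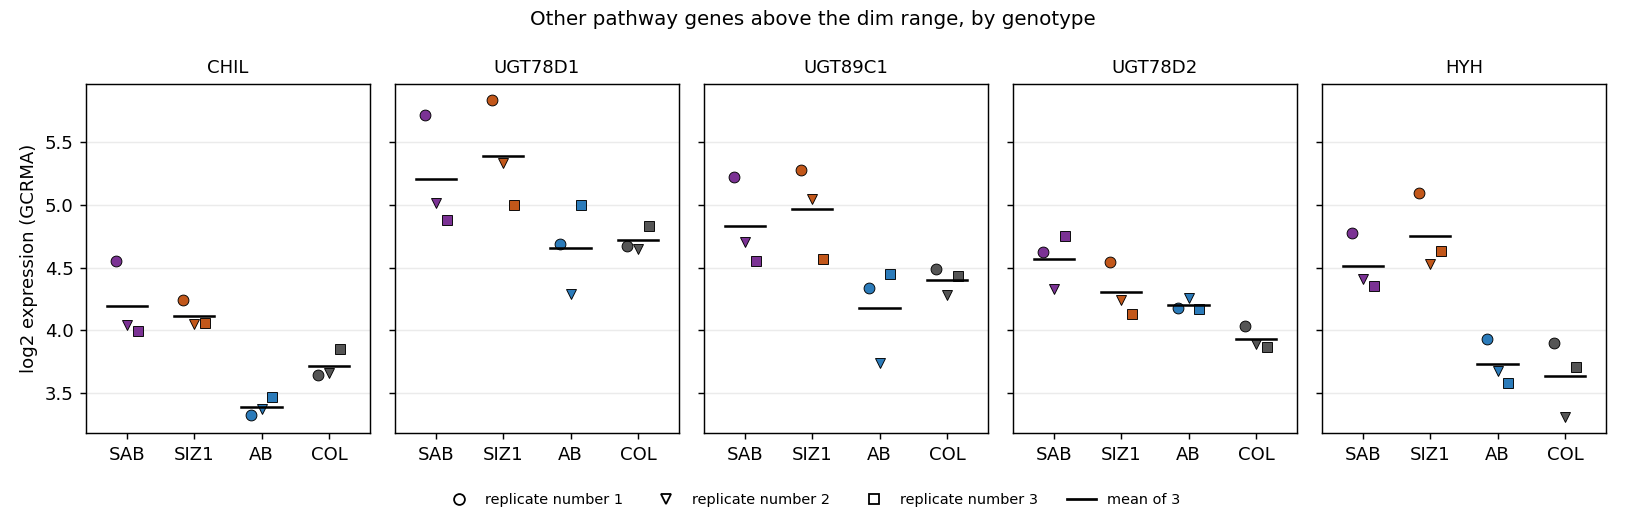
Log2 GCRMA expression (vertical axis) of CHIL, UGT78D1, UGT89C1, UGT78D2 and HYH in SAB, SIZ1, AB and COL, 1 symbol per array with the shape giving the replicate number and a bar for the mean of 3. CHIL, HYH and, by a narrow gap, UGT89C1 separate SAB and SIZ1 from AB and COL. The circles of replicate number 1 are the highest of SAB and SIZ1 for these genes and for UGT78D1.

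Profiles over the 12 arrays were compared with 13512 other named probe sets by Pearson correlation, as a description. The mean of the 7 standardised members was matched most closely by TRM18 (r = 0.94), AT3G45700 (0.93), AT3G59370 (0.92), AT4G01575 (0.91) and AT2G05260 (0.91). All 5 were highest on SAB 3, as were DFR, LDOX and PAP1, which make up part of that mean, and none was called in SAB or SIZ1 against COL. A mean of CHS, F3H and FLS1 alone, a choice made after their values were seen, was matched by AT4G21870 (0.96), AT3G23550 (0.95), CML42 (0.94), AT4G28740 (0.94) and AT3G19010 (0.93). CML42, a calmodulin-like protein, read 5.57, 5.25 and 5.52 in SAB, 5.43, 5.18 and 5.36 in SIZ1 seedlings, 4.74, 4.45 and 4.28 in AB, and 4.44, 4.04 and 4.82 in COL. It shared with F3H and FLS1 the gap between SAB and SIZ1 on one side and AB and COL on the other, and its low value on COL 2. Likeness to the mean of CHS, F3H and FLS1 was how CML42 was picked, so this sharing is no separate evidence. Against COL, CML42 and AT3G19010 were called by limma in SAB and in SIZ1 seedlings, and AT4G28740 in SAB only. AT4G21870 and AT3G23550 were called in neither. Points in these correlations share arrays and, within a number, whatever the number stands for.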

How the data were processed

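RNA from 12 seedling samples was measured on ATH1 arrays, 1 array per sample. The deposited file holds log2 values per probe set. Per the submitters' processing notes they are GCRMA values, of a version not stated there. GCRMA corrects background by probe sequence, normalizes between arrays and draws dim probe sets to a floor, which understates changes there. The log2 scale was read from the range of the values, which were used as deposited. The 64 control probe sets were left out, and no member was removed by a filter on low values.

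The genotype, and the replicate number, come from the sample names. A limma 3.58.1 model (R 4.3.3) with genotype as its term was fitted to all 12 arrays and 22746 probe sets, with 8 residual and 1.31 prior degrees of freedom. Tests were two-sided, adjusted by Benjamini-Hochberg over all probe sets, and called at adjusted p under 0.05. SE is limma's moderated standard error. The fit on genotype alone and the test of the replicate number were tried on simulated data with independent errors. The block fit was not tried there.

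Whether numbers pair arrays was checked before the fits were compared. For same-numbered arrays of different genotypes, the 18 correlations between deviations from the genotype mean ran from 0.102 to 0.451 (median 0.257). The median was -0.125 over the 36 pairs whose numbers differed. Deviations within a genotype cancel out, so positive correlations for shared numbers make the others negative, and this median is not separate evidence. For 12 of 12 arrays the highest correlation was with an array of their own number. The numbers were therefore taken to pair the samples, and the fit with the number as a block is given where it changes a call.

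Probe sets were named from the platform annotation, updated through a RefSeq table of TAIR10.1: 13513 name 1 gene, 503 several, and 8730 are unnamed here. The 7 members, the gene lists and the tests were chosen with earlier results of these data known. Named were the 7 members, SIZ1 and SPF1, up to 4 called genes per list, and the 5 probe sets most like the mean of the members. Other genes named, among them the uncalled list members and CML42, were chosen after their values were seen. Alternatives were other between-array scaling, filters on dim probe sets, limma options, fits of fewer genotypes, the block, and leaving out arrays.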

Additional observations from a re-analysis of the deposited data

How the results depend on the processing

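In SIZ1 and SAB against AB and COL, 3 of the 7 members were called on all arrays under each alternative run. Without AB 1 and AB 2 there was 1, and without AB 2, SAB 1 or SAB 3 alone there were 2. That first removal and the removal of all arrays of 1 number were chosen after seeing the data. Both leave fewer residual degrees of freedom, so a lost call there does not by itself show a changed difference. Of 677 changes recomputed under 23 alternatives, 558 kept their direction and side of the threshold, 24 gained a call, 69 lost one and 26 turned their sign, none of which had been called. The replicate block brought 3 called members in SAB against COL, SIZ1 against COL, SAB against AB and any difference among genotypes. Outside the members it added calls for UGT89C1 and HYH, and it changed no other call. Centring on medians gave 2 called members in SAB against AB and 2 for any difference, as did limma's trend and robust options (2 and 2). Quantile normalization, a fit of the 2 genotypes alone, and leaving out AB 1 and AB 2 each gave 0 in SAB against AB. Testing only brighter probe sets, which drops F3'H, LDOX, DFR and PAP1, gave 2 in SIZ1 against COL, 2 in SAB against COL, 3 in SAB against AB, 3 for any difference and 3 for the replicate number. Array weights, whose estimate did not converge and gave SAB 2 a weight of 33.3, called 3 in SAB against AB and 3 for any difference, in both F3H, FLS1 and LDOX, the last at -0.12 in SAB against AB (adjusted p = 0.0344) and with no call under the other alternatives. With them CHS was 0.17 and FLS1 0.46 in SAB against COL, CHS 0.49 in SAB against AB, and CHS 0.54 in SIZ1 and SAB against AB and COL. With the block, leaving out number 2 gave 0 in SAB against AB and an adjusted p of 0.0703 for F3H in SIZ1 and SAB against AB and COL, and leaving out number 3 gave 1 in SIZ1 against COL and 1 for any difference. Leaving out single arrays gave 0 to 1 in SIZ1 against COL, 0 to 1 in SAB against COL, 0 to 2 in SAB against AB and 0 to 1 for any difference. The cause of these changes was not tested.

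Small differences turned their sign in these cases. With array weights, SAB minus SIZ1 was -0.11 for F3H and -0.27 for FLS1, and the departure of CHS from the sum was -0.092. Without AB 1 and AB 2, CHS in AB against COL was 0.043 and its departure -0.19. With the block and without number 1 the CHS departure was -0.0038. With the block and without number 3, F3H was 0.090 in AB against COL and -0.083 in SAB against SIZ1, FLS1 was -0.068 in SAB against SIZ1, and the departures were -0.17 for F3H and -0.0044 for FLS1. Leaving out single arrays, AB against COL ran from -0.47 to 0.082 for F3H and from -0.38 to 0.047 for FLS1. SAB against SIZ1 ran from -0.32 to 0.068 for CHS, from -0.050 to 0.18 for F3H and from -0.037 to 0.34 for FLS1. The departure ran from -0.13 to 0.25 for CHS and from -0.045 to 0.51 for F3H. DFR and PAP1 lie at the array's floor, so their changes could not be measured.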
